A study of Homo sapiens with 15 samples.

Results

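The 288 BG4 regions described here lay outside strict CpG islands but no more than 1 kb from where a protein-coding transcript starts. They were 288 of the 6695 promoter regions (4.30%) and of the 8937 high-confidence regions on chr1 to chr22 and chrX (3.22%). A region counted as promoter when any base of it was within 1 kb of a start site of a basic protein-coding transcript in GENCODE release 44 on GRCh37. A strict island was a merged run of 500 bp windows, each having a GC share of 0.55 or more and a CpG ratio, observed over expected, of 0.65 or more, called from the genome sequence. The other 6407 promoter regions touched such an island. These 288 are called non-island promoter regions here, although 133 of them touched a looser island, built from 200 bp windows with a GC share of 0.5 and a ratio of 0.6. No measured value entered the choice, and the low GC and CpG content of the regions is a consequence of the rule.

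The regions came from chromatin immunoprecipitation and sequencing with BG4, an antibody that binds G-quadruplex structures, in K562. K562 is an established human leukaemia line with erythroid and megakaryocytic features, and the cells were asynchronous and untreated. Biological replicate 1 had 2 technical libraries (1a and 1c) and biological replicate 2 had 3 (2a, 2b and 2c), and each library has a deposited peak list of its own. The 2 K562 input libraries and the 8 bisulfite libraries of HaCaT keratinocytes, 4 given 10 uM entinostat for 48 h and 4 controls, were not analysed here. The files held no treated group and no expression values, so the comparisons are between classes of regions in the same libraries, and the K562 label could not be set against marker genes.

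A G-quadruplex (G4) is a four-stranded fold of G-rich DNA in which guanines pair in stacked planes, and antibody signal in chromatin is known to concentrate at nucleosome-depleted, GC-rich promoters. Most promoters of broadly used genes sit in CpG islands, which escape DNA methylation, whereas many tissue-restricted genes start outside them. Erythroid genes of the second kind commonly carry binding motifs for GATA factors, for NF-E2 and related AP-1 proteins, and for the Krüppel-like factors that bind CACCC boxes.

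The strongest non-island regions were G-rich, yet not all held the canonical motif, defined here as at least 4 G runs of length 3 or longer separated by loops of 1 to 7 bases, on either strand and inside the region. The 2 strongest, at ALDOC and MEAK7, held none, and their most G-rich stretches outside exons are shown on GRCh37 with every run of 3 or more G in capitals.
ALDOC, chr17:26903967-26904026, minus strand: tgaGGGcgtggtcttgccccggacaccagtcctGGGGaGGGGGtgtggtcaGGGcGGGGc
MEAK7, chr16:84538402-84538461, plus strand: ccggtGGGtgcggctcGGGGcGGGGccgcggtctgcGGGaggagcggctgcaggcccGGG

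In the next 6 regions by strength with a motif that lay outside exons, the first 4 runs that make up a motif are in capitals with their loops, on the strand that holds it. Further G runs that fit the motif can follow in lower case. At KDM2A, SH2D3A, GDF15 and LPIN3 that was the gene's own sense strand, and at MYADM and TCIRG1 the opposite one.
MYADM, chr19:54371096-54371133, minus strand: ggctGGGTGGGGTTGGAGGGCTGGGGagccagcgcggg
KDM2A, chr11:67007332-67007376, plus strand: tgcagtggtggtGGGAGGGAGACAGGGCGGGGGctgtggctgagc
SH2D3A, chr19:6767843-6767875, minus strand: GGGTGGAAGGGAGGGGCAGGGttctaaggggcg
GDF15, chr19:18485446-18485497, plus strand: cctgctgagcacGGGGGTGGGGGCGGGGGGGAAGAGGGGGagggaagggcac
TCIRG1, chr11:67811130-67811179, minus strand: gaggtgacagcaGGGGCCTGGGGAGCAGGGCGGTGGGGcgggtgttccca
LPIN3, chr20:39969326-39969370, plus strand: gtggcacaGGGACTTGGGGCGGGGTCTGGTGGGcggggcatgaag

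The GATA motif (spelt GATAAG) was more frequent in non-island regions than in island promoters. So was the motif of AP-1 and NF-E2, spelt TGAGTCA. Both are shown in capitals, as they read on the strand given, for 2 regions that held both and 6 that held either.
KRBA1, chr7:149416307-149416346, plus strand: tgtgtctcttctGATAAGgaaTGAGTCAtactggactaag
RPS6KA4, chr11:64125492-64125574, plus strand: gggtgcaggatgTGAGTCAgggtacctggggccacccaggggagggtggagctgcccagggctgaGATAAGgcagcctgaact
MARCHF2, chr19:8483185-8483230, plus strand: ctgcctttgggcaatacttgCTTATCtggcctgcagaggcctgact
NOS3, chr7:150691818-150691863, plus strand: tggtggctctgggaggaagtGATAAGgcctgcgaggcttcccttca
PDXK, chr21:45148502-45148547, plus strand: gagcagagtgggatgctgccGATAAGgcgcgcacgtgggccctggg
GDF15, chr19:18485394-18485440, plus strand: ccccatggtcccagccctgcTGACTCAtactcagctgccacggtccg
SHC1, chr1:154943294-154943340, minus strand: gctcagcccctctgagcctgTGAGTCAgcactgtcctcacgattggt
SEPTIN9, chr17:75315498-75315544, plus strand: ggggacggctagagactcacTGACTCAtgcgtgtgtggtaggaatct

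The 288 regions fell into 3 kinds by their surroundings. In 87 (30.2%) a strict island lay within 1 kb of the nearest start site without reaching the region, in 91 (31.6%) the region touched only a looser island, and in 110 (38.2%) there was neither. The median gap to the nearest strict island was 3698.5 bp, with quartiles of 597 and 11964 bp and a longest gap of 188584 bp. In 201 regions (69.8%) the gap was over 1 kb, in 91 it was over 10 kb, and in 32 it was at most 200 bp. The edge of the island decided a few: ARMC6, PRR11 and PPP2R5B had regions 1, 37 and 39 bp from a strict island.

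The regions were narrow and moderately GC-rich. Their median width was 176.5 bp, against 217 bp for promoter regions in strict islands, and 10 of the 288 were 50 bp or less. Median GC content was 64.1%, against 71.4% in island promoters, and the median observed over expected CpG ratio was 0.42, against 0.89. Both follow from the rule and are given as description. The high-confidence list holds positions alone, and all 8955 of its regions were identical to the bases covered by peaks of at least 3 of the 5 libraries. Hence some are slivers, such as single-base regions at CBFA2T3 and CTCFL, and adjacent small regions can rest on the same peak.

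Non-island promoter regions were found in every library less often than island promoters. A peak of all 5 libraries overlapped 113 of 288 non-island regions (39.2%, 95% Wilson interval 33.8 to 44.98%) and 3835 of 6407 island regions (59.9%). The difference was −20.6 percentage points (95% Newcombe interval −26.2 to −14.7). Over all high-confidence regions the share was 55%. Against the 1210 regions that lay away from start sites and outside strict islands, of which 33.5% were in all 5 libraries, the difference was 5.77 points (−0.33 to 12.1), and that interval includes 0. Peaks in exactly 4 libraries overlapped 80 non-island regions (27.8%), and peaks in exactly 3 overlapped 95 (33.0%). The intervals cover counting error over regions only, and not the dependence between neighbouring regions.

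The loss was uneven over the libraries. Library 1a had a peak at 257 of the 288 regions, library 1c at 227, 2a at 203, 2b at 206 and 2c at 277. In that order of libraries, the shares were 89.2, 78.8, 70.5, 71.5 and 96.2% for non-island regions and 92.7, 81.6, 82.3, 88.6 and 95.8% for island regions. Library 2c alone had a share that was not lower outside islands, and the widest gaps were in 2a and 2b, the libraries with the shortest lists (8041 and 9009 peaks, against 10053 to 12468 in the others). Of the 80 regions missing from 1 library, 29 lacked one in 2a, 22 in 1c, 19 in 2b, 9 in 1a and a single region in 2c. The peak names inside the 2a and 2c lists carry each other's letter, and the sample labels were followed, so values of these libraries may be exchanged. With all lists shortened to an equal number of peaks, the difference in the share found in all 5 libraries was −17.3 points (−23.7 to −10.5).

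Where present, the peaks were also weaker within their own list. Each peak's fold enrichment, the authors' ratio of summit signal to local background, was ranked as a percentile of its own list, because ratios are comparable only within a list. In library 1a the median percentile was 59.2 for non-island and 68.8 for island regions. Library 1c had medians of 59.98 and 65.3, 2a of 43.6 and 58.3, 2b of 38.9 and 59.5, and 2c of 49.98 and 63.5, for non-island and island regions each time. Non-island regions were lower in 5 of 5 libraries, by a mean difference of −12.7 percentile points. The exact two-sided sign-flip permutation test over the 5 libraries gave p = 0.0625, the smallest p it can give, so it cannot pass 0.05. The difference averaged −7.46 in biological replicate 1 and −16.2 in replicate 2 (mean −11.8 ± 6.21, SD, n = 2). Technical libraries of one culture are not independent, although the sign-flip p treats them as independent.

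**Figure D1:**
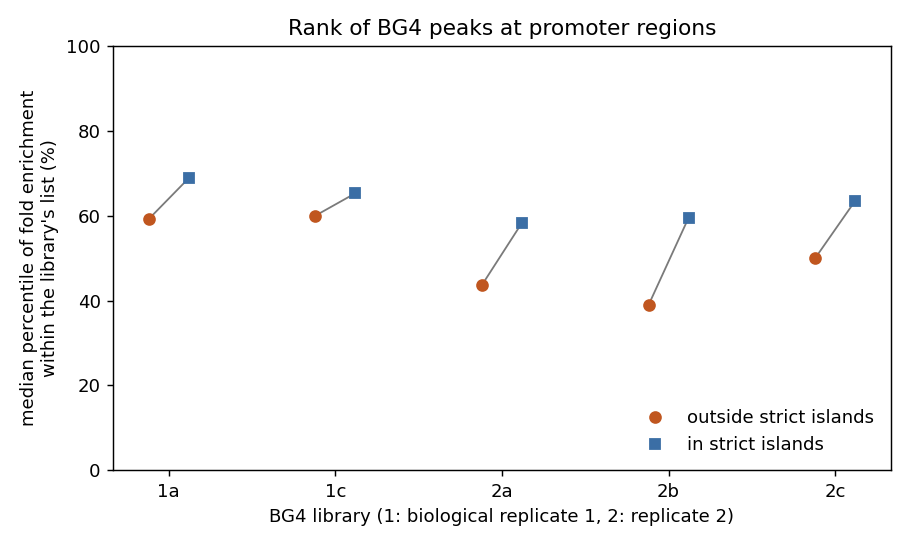
Median percentile of BG4 fold enrichment within each library's own peak list (vertical axis, %) for promoter regions outside strict islands (circles) and in strict islands (squares), by library. The circles sit below the squares in each library, from 59.98 against 65.3 in 1c to 38.9 against 59.5 in 2b.

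In units of fold enrichment, library 1a had medians of 7.42 at non-island and 8.12 at island regions. Library 1c had 7.05 and 7.37, 2a had 6.42 and 7.21, 2b had 5.79 and 6.66, and 2c had 6.03 and 6.74. Of the regions with a peak, 4.28, 7.05, 2.96, 3.40 and 6.14% of non-island regions ranked above the 90th percentile in the same order of libraries, against 17.4, 15.7, 12.7, 13.5 and 14.9% of island regions. Among regions of 150 to 300 bp, the mean percentile difference was −7.52 (−1.72 in replicate 1 and −11.4 in replicate 2) and the difference in the share found in all 5 libraries was −13.7 points (−21.6 to −5.95). Among regions with a GC content of 62 to 68%, an alternative chosen after seeing the data, the mean percentile difference was −8.67 and the difference in the share found in all 5 libraries was −14.0 points (−23.4 to −4.37).

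The 3 kinds of surroundings did not differ beyond counting error in the share found in every library, which was 35.6% beside a strict island, 42.9% in looser islands and 39.1% with no island. The widest of the 3 differences was −7.22 points, for regions beside an island minus those in looser islands (−21.0 to 7.03). Regions with no island ranked lower than island promoters by a mean of −12.99 percentile points, and regions in looser islands by −8.35. Regions beside a strict island ranked lowest, by −18.0 relative to island promoters. In each of these 3 comparisons 5 of 5 libraries had the lower value outside strict islands (exact sign-flip permutation p = 0.0625 each, the smallest possible). Set against regions away from start sites and outside strict islands, the non-island promoter regions ranked higher by a mean of 6.07, in 5 of 5 libraries (exact p = 0.0625).

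The regions were spread more widely around the start site than island regions. The rule bears on position, because a region near a strict island was kept only where the island did not reach it. How far this shaped the shares below was not tested. The middle lay downstream of the nearest start site in 78 of 288 non-island regions (27.1%) and in 1053 of 6407 island regions (16.4%), a difference of 10.6 points (5.75 to 16.1). The start site itself was covered by 42.7% of non-island and 69.7% of island regions (−27.0 points, −32.7 to −21.1). The 150 bp upstream of the start site held the middle of 46.5% of non-island and 68.1% of island regions (−21.6 points, −27.3 to −15.7). An untranslated exon part overlapped 54.9% of non-island and 76.1% of island regions, and any exon overlapped 63.9 and 83.1%. The start site was covered by 25 of 87 regions beside a strict island (28.7%), 50 of 91 in looser islands (54.9%) and 48 of 110 with no island (43.6%).

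**Figure D2:**
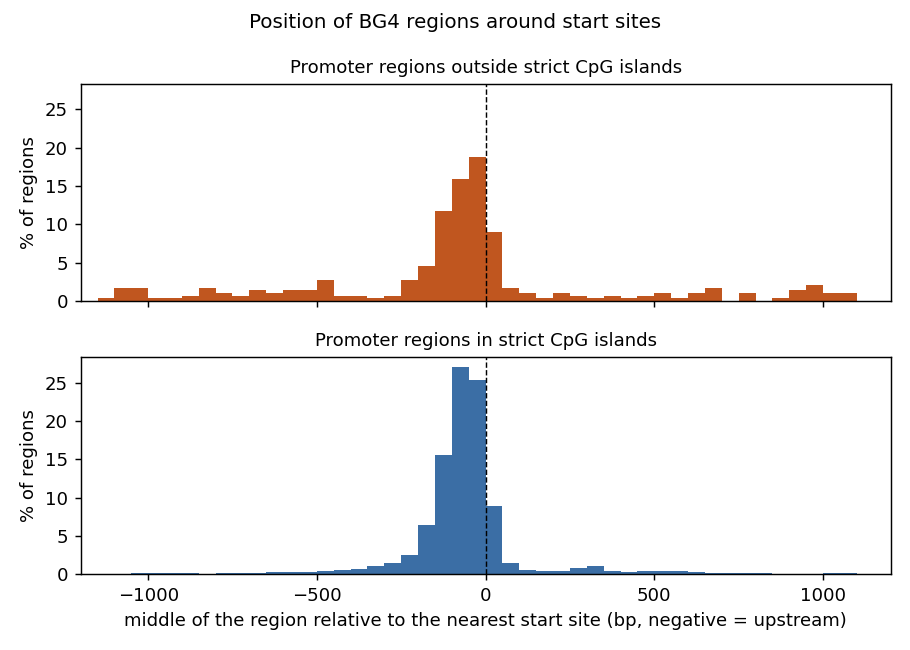
Distance of the middle of each region from the nearest protein-coding start site (horizontal axis, bp, negative upstream, 50 bp bins) against the share of regions (vertical axis, %), for non-island promoter regions (top) and island promoter regions (bottom). Both peak just upstream of the start site, and the 150 bp upstream hold 46.5% of non-island and 68.1% of island regions.

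The 1 kb limit had regions on both sides. Just inside it were C15orf39 at 996 bp, SPAG9 at 990 bp and GET1 at 988 bp, and just outside, not counted, were RPS6KA1 and SLC25A37 at 1008 bp and STAT6 at 1014 bp. Chromosome 19 held 54 of the 288 regions (18.8%), against 9.24% of island promoter regions (difference 9.51 points, 5.36 to 14.5) and 13.9% of regions away from start sites outside islands (4.87 points, 0.29 to 10.1). Chromosomes 1, 17, 16 and 11 followed with 38, 28, 20 and 19 regions.

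A canonical G4 motif was present in 74 of 288 non-island promoter regions (25.7%, 21.0 to 31.0%) and in 37.8% of island promoter regions, a difference of −12.1 points (−17.0 to −6.65). The share over all high-confidence regions was 34.7%. This difference moved with width and GC content: among regions of 150 to 300 bp it was −7.48 points (−14.2 to 0.17), and among regions of 62 to 68% GC it changed sign, with a motif in 30 of 110 non-island regions (27.3%) and 293 of 1422 island regions (20.6%), a difference of 6.67 points (−1.09 to 15.9). Against regions away from start sites and outside islands, of which 16.6% held a motif, non-island promoters were higher by 9.08 points (3.89 to 14.8). With loops of up to 12 bases, 41.7% of non-island and 53.8% of island regions matched, and with G runs of 2 or more 88.2 and 94.1%.

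Among non-island regions, those with a motif were found in every library more often, in a comparison that did not match width. A peak of all 5 libraries overlapped 39 of 74 regions with a motif (52.7%) and 74 of 214 without (34.6%), a difference of 18.1 points (5.10 to 30.6). Their rank did not separate in the same way: library 1a had a median percentile of 58.0 with and 59.8 without a motif, 1c of 62.1 and 57.4, 2a of 47.6 and 40.6, 2b of 47.7 and 37.05, and 2c of 55.6 and 48.4. Regions with a motif were higher in 4 of 5 libraries, by a mean of 5.51 over all 5 (exact sign-flip permutation p = 0.125). A motif must fit inside the region, and presence in all 5 libraries also moved with width. It was 54.7% (87 of 159) among non-island regions of 150 to 300 bp, against 39.2% of all 288. Whether the motif difference holds at equal width was not tested. Regions in looser islands held a motif in 33.0%, those beside a strict island in 25.3% and those with no island in 22 of 110. The difference for regions with no island minus those in looser islands was −13.0 points (−25.0 to −0.78).

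The motif was on the gene's sense strand alone in 41 non-island regions, on the opposite strand alone in 30 and on both in 3. The sense share of single-strand motifs was 57.7% (46.2 to 68.5%), against 54.7% (52.6 to 56.8%) in island regions. Upstream of the start site the counts were 32 sense and 21 opposite, and downstream 9 and 9. At this number of regions no strand preference outside islands was detectable.

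The non-island regions differed from island promoters in short motifs that transcription factors are known to bind. Each region was searched on both strands in a 200 bp window around its middle, so windows are of equal length. GATAAG was present in 44 of 288 non-island promoter windows (15.3%) and 90 of 6407 island windows (1.40%), a difference of 13.9 points (10.2 to 18.5). TGAGTCA was present in 42 non-island windows (14.6%) and 108 island windows (1.69%), a difference of 12.9 points (9.27 to 17.4). The same held at 62 to 68% GC in both classes, with GATAAG in 12.7 and 2.32% and TGAGTCA in 16.4 and 1.97%. Regions away from start sites and outside islands held both more often still, at 21.4% for GATAAG and 19.9% for TGAGTCA.

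The CACCC box, which the Krüppel-like factors bind, was present in 69.8% of non-island and 51.5% of island windows (18.3 points, 12.6 to 23.5). Regions away from start sites and outside islands held it about as often as non-island promoters, at 68.3% (difference 1.44 points, −4.65 to 7.13). The GC box GGGCGG, bound by Sp1, was at 48.6% outside and 82.4% in islands (−33.8 points, −39.6 to −28.0). It holds a CpG, as do the ETS motif and the E-box, and the rule sorts regions by CpG, so their shares are given as description. The GC box can overlap a G4 motif, and a CACCC match can abut either. CCAAT, bound by NF-Y, was at 28.1 and 35.9%, and the ETS motif CCGGAAG at 8.33 and 15.8%. The TATA box TATAAA was rare in both, at 1.39 and 1.33%, and the E-box CACGTG was at 6.94 and 8.58%, with both intervals of the difference including 0. A match shows letters in a window and says nothing of whether the factor binds.

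**Figure D3:**
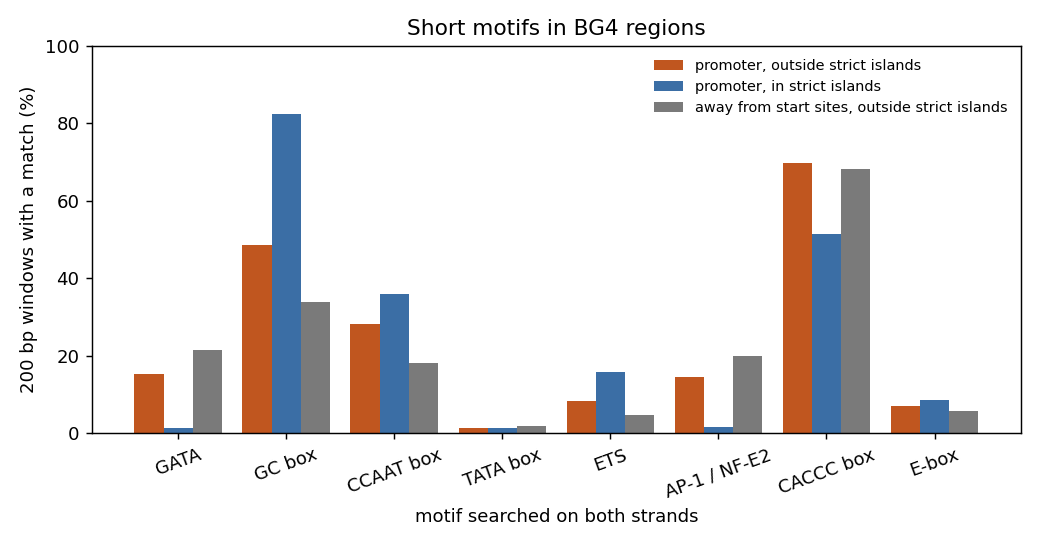
Share of 200 bp windows around the region's middle with a match to each of 8 short motifs on either strand (vertical axis, %), for non-island promoter regions, island promoter regions and regions away from start sites outside islands. GATA and AP-1 or NF-E2 matches stand at 15.3 and 14.6% outside islands, against 1.40 and 1.69% in island promoters, while the GC box, which holds a CpG that the rule used, is at 48.6 against 82.4%.

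By surroundings, GATAAG was in 22 of 110 windows with no island, 13.8% beside a strict island and 10.99% in looser islands, and the intervals of all 3 differences include 0. TGAGTCA was in 16.4% with no island, 20.7% beside a strict island and 6.59% in looser islands. Looser islands were lower than regions beside a strict island, which had 14.1 points more (4.03 to 24.4), and than regions with no island, which had 9.77 points more (0.67 to 18.5). The GC box was at 34.5% with no island, 44.8% beside a strict island and 69.2% in looser islands, which were themselves called by CpG content. Either GATAAG or TGAGTCA was in 81 of the 288 windows, and 5 held both, among them TEPP, HK1, KRBA1 and RPS6KA4. HK1 encodes hexokinase 1.

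Regions with either motif did not differ beyond counting error from the 207 with neither in G4 motifs (27.2 and 25.1%, difference 2.04 points, −8.54 to 13.9) or in presence in all 5 libraries (45.7 and 36.7%, 8.96 points, −3.44 to 21.4). The middle of the region was within 150 bp of the start site in 49.4% of those with either motif and 61.8% of those with neither (−12.5 points, −24.8 to 0.18). KRBA1, which encodes a KRAB-related protein, ranked at 76.7 and 79.5 in replicate 1, at 24.5 in 2b and 14.4 in 2c, and had no peak in 2a.

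Genes whose start sites have no strict island within 1 kb rarely had a BG4 region. Of 4973 such protein-coding genes 125 had one (2.51%, 2.11 to 2.99%), against 6672 of 14774 genes with a strict island (45.2%) and 34.4% of all 19747 genes. The share was 0.907% with looser islands in place of strict ones and 1.17% when each peak needed a −log10 p of 10. By single library, a peak lay at 3.76, 2.88, 2.17, 2.19 and 3.50% of genes without an island, in the order 1a, 1c, 2a, 2b, 2c. In all, 280 genes had a non-island region within 1 kb. Of these 125 had no strict island and 155 had one, and 81 of the 155 also had a BG4 region in the island.

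Within genes without a strict island, the share with a BG4 region moved with promoter GC content. In the window from 250 bp before to 50 bp after the canonical start site, median GC was 62.5% in the 124 genes with a region whose window was read and 49.3% in the 4657 without. No gene of 1642 with under 45% GC had a region, which allows up to 0.23% (Wilson). The share was 0.13% at 45 to 50% GC, 1.71% at 50 to 55%, 3.93% at 55 to 60%, 7.92% at 60 to 65%, 11.8% at 65 to 70%, and 17.4% (8 of 46 genes, 9.09 to 30.7%) at 70% or more. Even the top class stood below the 45.2% of genes with a strict island, a group whose GC content was not matched to it.

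**Figure D4:**
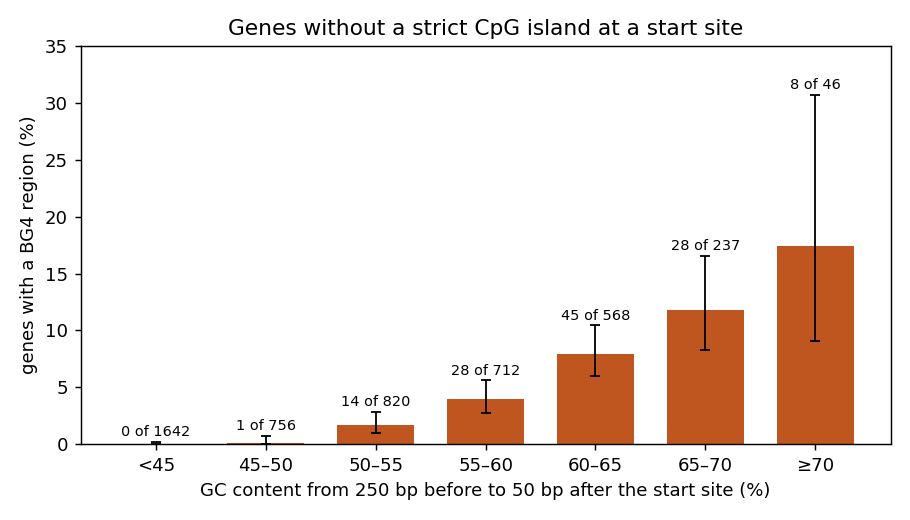
Share of protein-coding genes without a strict CpG island at a start site that had a BG4 region within 1 kb (vertical axis, %), by GC content of the promoter window (horizontal axis, %), with 95% Wilson intervals and counts above the bars. The share is 0 of 1642 under 45% GC and 8 of 46 at 70% or more.

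The G4 motif was more frequent in the promoter windows of genes that had a BG4 region, before GC content was considered. The window lay at the canonical start site, whereas the region could be within 1 kb of any start site, so the window need not hold it. The motif was present in the windows of 42 of 124 genes with a BG4 region (33.9%) and 629 of 4657 genes without (13.5%). The difference was 20.4 points (12.6 to 29.1). With the window's GC at 60% or more the shares were 48.1 and 46.0%, a difference of 2.17 points (−8.95 to 13.4). By GC class, the share of genes with a region was not steadily higher with a motif. At 50 to 55% GC it was 0 of 81 genes with a motif and 14 of 739 without, and at 55 to 60% it was 1.88 and 4.53%. At 60 to 65% GC, 7.96% of genes with a motif and 7.89% of genes without had a region. At 65 to 70% the shares were 10.4 and 13.6%, and at 70% or more they were 21.2% (7 of 33 genes) and 7.69% (1 of 13). The interval at 60% or more does not show that the motif is without effect.

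Among genes without an island, the same promoter windows also held other motifs at other shares in genes with a region than in genes without. GGGCGG was in 55.6 and 16.9% (38.8 points, 29.9 to 47.3), CACCC in 81.5 and 58.8% (22.7 points, 14.8 to 28.7), and CCGGAAG in 10.5 and 2.49% (7.99 points, 3.71 to 14.6). TATAAA was in the windows of 3.23% of genes with a region and 23.4% of genes without (−20.2 points, −22.5 to −15.2). GATAAG did not differ beyond counting error here, at 7.26 and 9.81% (−2.56 points, −6.06 to 3.46), nor did TGAGTCA at 9.68 and 7.49% or CCAAT at 37.1 and 38.1%. The GC content of these windows was not matched.

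The 15 strongest regions, ordered by their lowest percentile over the 5 libraries, included promoters of enzymes, membrane proteins and transcription regulators. ALDOC, which encodes the brain form of the glycolytic enzyme aldolase, led them. Its region, chr17:26903855-26904147, covered the start site and ranked at percentiles of 97.4, 95.6, 89.7, 98.4 and 99.4 in libraries 1a, 1c, 2a, 2b and 2c, with fold enrichments of 14.5, 11.9, 10.1, 11.9 and 13.4. It ranked above the 90th percentile in each list but that of 2a, and lay 4755 bp from the nearest strict island. MEAK7, a regulator in mTOR signalling, followed with percentiles of 97.2, 97.0, 96.9, 89.0 and 95.4, the lowest in 2b. Its region lay 88353 bp from a strict island.

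MYADM, a membrane protein first described in myeloid cells, had percentiles of 98.1, 99.7, 94.2, 88.7 and 96.5 in libraries 1a, 1c, 2a, 2b and 2c. Its fold enrichments, comparable only within a list, were 15.1, 16.3, 11.1, 8.99 and 11.04 in the same order. Its region stood 615 bp from a strict island. LYL1, a haematopoietic basic helix-loop-helix factor, had percentiles of 98.6, 91.7, 96.7, 85.1 and 95.8. Its region of 412 bp over the start site held 40 CpG and a G4 motif on the gene's own sense strand. KDM2A, a histone demethylase that itself binds CpG islands, had a region 20637 bp from any strict island at one of its start sites, with percentiles of 79.9, 98.1, 77.6, 80.1 and 99.1. Libraries 1c and 2c were high there and the other 3 lower.

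**Figure D5:**
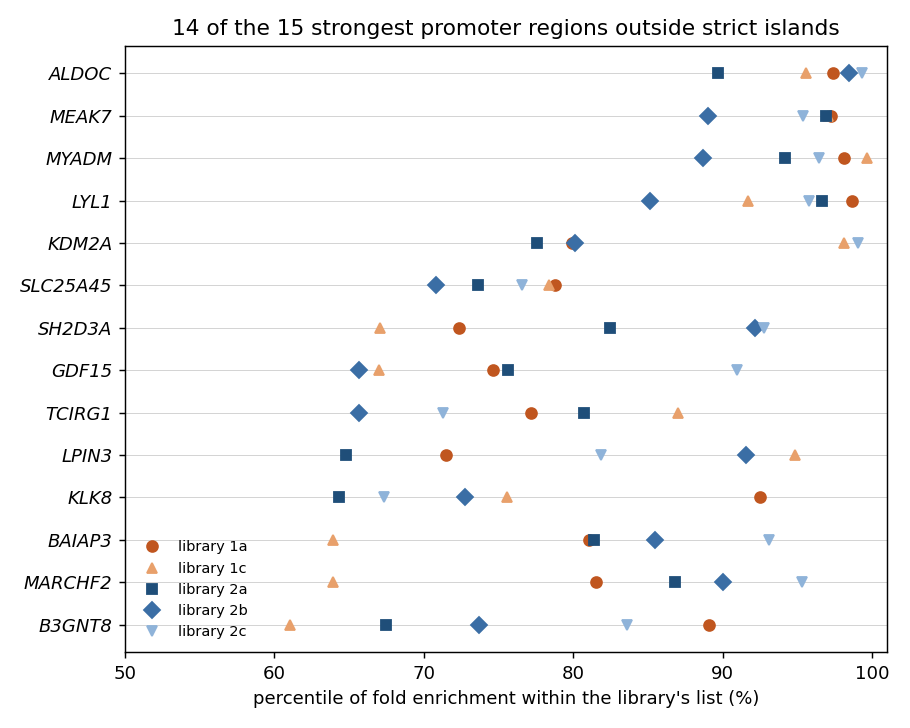
Percentile of fold enrichment within each library's own list (horizontal axis, %) for 14 of the 15 strongest non-island promoter regions, 1 row per gene and 1 symbol per library, ordered from the highest lowest percentile (top, ALDOC) downwards. MEAK7 has 1 library, 2b, at 89.0 while the others lie between 95.4 and 97.2.

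SLC25A45, a mitochondrial carrier, had the strongest region among those touching no island of either kind. Its percentiles were 78.8, 78.4, 73.6, 70.8 and 76.6 in libraries 1a, 1c, 2a, 2b and 2c, the values closest together among the 15. GDF15, a stress-induced cytokine, had percentiles of 74.6, 66.98, 75.7, 65.7 and 91.0, high in 2c alone, at the region printed with both a G4 motif and a TGAGTCA match. MARCHF2, a ubiquitin ligase, had percentiles of 81.5, 63.9, 86.8, 90.03 and 95.3 in a region of 59.8% GC with 4 CpG and no G4 motif.

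B3GNT8, a glycosyltransferase gene, had a region of 74.8% GC over its start site with a G4 motif and percentiles of 89.1, 61.0, 67.5, 73.7 and 83.6. SHC1, an adaptor of receptor tyrosine kinases, had percentiles of 87.1, 83.7, 90.5, 77.9 and 56.5 in libraries 1a, 1c, 2a, 2b and 2c. It was lowest in 2c. Its fold enrichments were 10.6, 9.15, 10.2, 7.81 and 6.34 in the same order. NOS3, the endothelial nitric oxide synthase, had a region 831 bp downstream of the nearest start site with percentiles of 90.7, 77.3, 66.4, 50.3 and 72.5. SEPTIN9, TEPP and ENSG00000267952 were also among the 10 strongest without any island touched, with lowest percentiles of 49.5, 49.5 and 46.3.

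Also among the 15 were SH2D3A, TCIRG1, LPIN3, KLK8 and BAIAP3, with lowest percentiles of 67.1, 65.7, 64.8, 64.3 and 63.9 and highest of 92.7, 87.0, 94.9, 92.5 and 93.1. TCIRG1, a subunit of the vacuolar proton pump, had the middle of its region 693.5 bp downstream of the nearest start site. LPIN3, a phosphatidate phosphatase, had a region covering its start site only 110 bp from a strict island. Percentiles of a single gene ran from 70.8 to 78.8 over the libraries at SLC25A45 and from 63.9 to 93.1 at BAIAP3. The spread within and between genes was not compared.

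The widest regions were at LMTK3 (580 bp), SCN9A (501 bp) and SH2D3A (455 bp). LMTK3, a membrane kinase, had percentiles of 86.1, 82.0, 66.95, 8.39 and 66.1 in libraries 1a, 1c, 2a, 2b and 2c, so library 2b stood far below the others. SCN9A, a voltage-gated sodium channel of sensory neurons, had percentiles of 95.3, 98.7, 76.2, 89.3 and 35.1, with 2c the lowest, and lay 152989 bp from a strict island. KLK4, a serine protease, had the most G4 motif bases (72), ahead of SCN9A (68) and LMTK3 (66), yet its percentiles were 81.3, 33.0, 52.5, 3.88 and 24.4, high in 1a alone.

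In 13 gene lists with 269 genes, of which 268 matched the annotation, 10 genes had a non-island region, beside 280 of 19747 genes overall (1.42%). Of the 118 listed genes without a strict island 5 had a region, beside 2.51% of all genes without one. The erythroid and megakaryocytic list gave 4 of 38 genes, EPOR, GFI1B, LYL1 and NFE2, beside the same 1.42%, and 2 of its 21 genes without an island, beside 2.51%. AHSP, a globin chaperone, and ALAS2, the erythroid enzyme that starts haem synthesis, had neither an island nor a region. EPOR, the erythropoietin receptor, had percentiles of 85.0, 56.1, 24.5, 34.5 and 77.1 in libraries 1a, 1c, 2a, 2b and 2c at a region over its start site, 304 bp from a strict island.

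NFE2, which encodes the haematopoietic subunit of NF-E2, had 2 regions at different start sites, neither near any island. The one over a start site ranked at 46.5, 22.9, 63.5, 37.7 and 74.1 in libraries 1a, 1c, 2a, 2b and 2c, and the other at 89.6 and 57.4 in replicate 1, with 3.88 in 2b, 14.2 in 2c and no peak in 2a. GFI1B, a repressor required for red cells and platelets, had a region in 3 libraries, 734 bp from its nearest start site and 32406 bp from a strict island.

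SPI1, the myeloid factor PU.1, was the only 1 of 20 myeloid genes with a non-island region, beside 1.42% of all genes. It had peaks in 1a, 2a and 2c at percentiles of 8.87, 46.8 and 46.4. IRF9 and BST2, of the interferon response, gave 2 of 14 list genes without an island, beside 2.51% of all such genes. IRF9 ranked at 85.7 in 1a, 17.0 in 1c, 40.3 in 2b and 49.6 in 2c, and BST2 had a region of 32 bp in 3 libraries. SFN and JUP, listed as keratinocyte genes, and COX6B1, a subunit of respiratory complex IV, each had a strict island as well. The globin, lymphocyte, hepatocyte, antigen-processing, ribosomal, zinc finger, metallothionein and DNA methylation lists had no gene with a non-island region, beside 1.42% of all genes. Many listed genes had neither an island nor a region, and only examples from the alphabetical start of each list are named. They were AZU1 and CD33, DSG1 and DSG3, IFI27 and IFI35, HBB and HBD, and CD2. Further examples were AHSG and ALB, CD74 and CIITA, ZNF175 and ZNF208, MT1B and MT4, and DNMT3L. None of the 19 lymphocyte and 17 hepatocyte genes without an island had a region, beside 2.51% of all genes without an island. Lists of this size are too small to tell an empty list from that share.

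The 288 regions had 262 different nearest genes, and 25 genes had more than 1 region, with 3 at CTCFL, the testis paralogue of CTCF. Several of the others, named here after their values were seen, act in blood cells. UROD, of haem synthesis, had a region 421 bp downstream of a start site with percentiles of 76.8, 61.2, 57.8, 71.3 and 58.0 in libraries 1a, 1c, 2a, 2b and 2c. TFR2, the second transferrin receptor, had percentiles of 89.5, 82.1, 40.6, 16.6 and 82.7, low in 2a and 2b. CBFA2T3, a corepressor in red cell precursors, had percentiles of 79.7, 90.7, 74.8, 23.7 and 43.3. NBEAL2, needed for platelet granules, had percentiles of 63.7, 72.5, 67.5, 37.1 and 87.2. UNC13D, needed for granule release in lymphocytes, had 2 regions in all 5 libraries whose percentiles ran from 45.2 to 79.2 and from 45.2 to 96.0. In TFR2, CBFA2T3 and NBEAL2, library 2b had the lowest value.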

How the data were processed

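BG4 peaks of 5 K562 libraries and 1 high-confidence list were used. Peaks were called with MACS2 on hg19, per the submitters' processing notes, and per library, as the separate lists show. Aligner, control library, filters and version: not given in the sources used here. The deposited score equalled 10 times the −log10 p without its decimals for 99.99 to 100% of peaks, and the lowest −log10 p was 5.00 to 5.05. The deposited −log10 p and −log10 q belong to the summit. The deposited fold enrichment, a ratio, was the authors' and was used only within its own list. The authors gave only positions in the high-confidence list. Read depth was not given, so it is unknown.

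Strict and looser islands were called from GRCh37, start sites came from GENCODE release 44, and 15 chrM and 3 chrY regions were left out. A region had a peak of a library when they overlapped by 1 base or more, and took the highest fold enrichment among them. Shares have 95% Wilson and differences 95% Newcombe intervals, for counting error only. Medians of percentiles were compared by an exact two-sided sign-flip permutation over the 5 libraries. The labels do not say how the replicate cultures were separated, so p-values may measure technical spread.

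Named genes were the 15 strongest regions found in all 5 libraries by their lowest percentile, the 10 strongest touching no island, list members, the 3 widest, the 3 with most motif bases, and those at the 1 kb limit. The members and lists were chosen with earlier results of these data known. Some genes that the rule names are not reported here. Alternatives were other island, distance, width, list-length and peak thresholds, other motif definitions, leaving out each library, and a GC band chosen after seeing the data. Sequences were read from GRCh37. Scripts were tested on simulated data. Python 3.11.15, NumPy 2.4.6, pandas 2.3.3, SciPy 1.17.1 and matplotlib 3.10.9 were used.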

Additional observations from a re-analysis of the deposited data

Results flagged for a closer look

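In 2 named regions the percentile of 1 library stood far from the others, and in both it was library 2b and the lowest. At MEAK7 library 2b was at 89.0, while the other 4 lay between 95.4 and 97.2, and the gap was 0.776 of the whole range. At LMTK3 library 2b was at 8.39, while the other 4 lay between 66.1 and 86.1, and the gap was 0.743 of the range. Dixon's critical value is 0.71 for 5 samples. These were 2 of 42 groups of 4 or 5 libraries examined, and chance flags about 1 in 20.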

How the results depend on the processing

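The lower rank, the lower share in all 5 libraries and the higher downstream share outside islands kept their direction, and the intervals of both shares excluded 0, under all alternatives tried (17, 17 and 16). The smallest rank difference was −7.52 and the smallest difference in the all-library share −13.7 points, both among regions of 150 to 300 bp. With looser islands 163 regions remained outside islands, and 144 when each peak needed a −log10 p of 10. The share of genes without an island that had a region was then 0.907% and 1.17%, and 1.91% with equal list lengths. Leaving out each library in turn gave 205 to 257 regions, a gene share of 1.75 to 2.19%, all-library differences of −20.5 to −14.1 points, rank differences of −14.5 to −12.0, motif differences of −14.3 to −12.1 and downstream differences of 9.12 to 14.4. The motif difference was −7.48 among regions of 150 to 300 bp, where the interval includes 0, and reversed to 6.67 among regions of 62 to 68% GC; the other 17 alternatives gave the same call. No paired analysis was possible because the BG4 libraries form 1 group and the HaCaT samples, whose labels share replicate numbers, were not analysed here. Read depth is unknown, so a region missed for depth cannot be told apart from an absent one.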
